A study of Mus musculus with 4 samples.

Results

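The 10 genes described here belong to the mammalian circadian clock: Clock, Arntl, Per1, Per2, Per3, Cry1, Cry2, Nr1d1, Nr1d2 and Dbp. They were chosen by name as known clock genes, and all 10 were found among the 55401 genes of the count files. In this clock, the proteins of Clock and Arntl bind DNA together and switch on the Per and Cry genes, whose proteins enter the nucleus and block their own activators. A connected loop runs through Nr1d1 and Nr1d2, nuclear receptors that repress Arntl, and Dbp is an output factor that the loop drives. In many adult tissues the RNAs of these genes rise and fall with the time of day, and feeding is among the cues that set their timing.

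RNA was profiled in germ cells from the ovaries of E18.5 fetuses, which the labels call primordial germ cells and the study calls fetal oocytes. The mothers were ICR mice fed a normal diet (ND) or one high in fat (HFD) over 4 months from 3 weeks of age and mated with ND males, and the labels name no other treatment. There were 2 samples for each diet, each a pool of oocytes from several fetuses sorted by FACS on SSEA-1 and amplified by SMART-Seq2, which makes libraries from little input. The time of day at which fetuses were collected is not given in the sources used here, and the sources do not say whether the fetuses of a pool shared a litter, so the p-values measure only the spread between these pools.

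The 4 libraries held 5723605 to 8223255 counted reads, and levels are given as CPM, a gene's share of its library's reads in parts per 1000000. A count of 3 was worth between 0.365 CPM in the deepest library and 0.524 CPM in the shallowest. Reads were present on 80.2% to 96.0% of 1135 olfactory receptor genes, which serve smell and were taken as a measure of background. A gene was called above background in a library when it had more than 3 counts and more reads per kilobase of exon than 99% of these genes, a limit of 7.44 to 12.5 reads per kilobase. Of 12 germ cell markers, 8 to 11 were above background in each library, and 6 were above it in all 4 libraries. Their sums were 2296 and 4504 CPM in ND replicates 1 and 2 and 3885 and 2233 CPM in HFD replicates 1 and 2. Germ cell markers were uneven between libraries. Dazl ranged from 8.56 CPM in HFD replicate 2 to 3770 CPM in ND replicate 2, and Sycp1 from 4.38 CPM in ND replicate 1 to 1400 CPM in HFD replicate 1. Ddx4 did not exceed 12.4 CPM in any library. Markers of other cells differed between libraries: 6 blood genes summed to 1973 CPM in ND replicate 1 and 1.41 to 10.8 CPM in the others, and 5 endothelial genes to 698 CPM in HFD replicate 1 and 18.8 to 68.6 CPM in the others. The endothelial sum rested on Kdr, with 681 CPM in HFD replicate 1, whereas Pecam1 was highest in ND replicate 2, at 53.9 CPM, and Cdh5, Tek and Emcn did not exceed 9.96 CPM in any library. The stromal list, with 10 genes, ranged from 72.2 to 2853 CPM in ND and from 2225 to 7714 CPM in HFD. In ND replicate 1 and HFD replicate 2 the stromal sum exceeded the germ cell sum. These sums rested on few genes, which differed apart from Col1a1, with 1432 and 2741 CPM in these libraries. Lum and Dcn had 598 and 323 CPM in ND replicate 1 but 1.22 and 2.97 CPM in HFD replicate 2. Col3a1 and Postn had 2968 and 1272 CPM in HFD replicate 2 but 32.6 and 2.92 CPM in ND replicate 1. Pdgfra, Pdgfrb and Tcf21 did not exceed 26.4 CPM in any library. The list of 9 pregranulosa genes ranged from 30.2 to 412 CPM in ND and from 18.7 to 2080 CPM in HFD. Its high sums rested on few genes, Fst with 383 CPM in ND replicate 2 and Amhr2 and Rspo1 with 1113 and 920 CPM in HFD replicate 2. Foxl2, Wnt4, Lgr5, Irx3, Gata4 and Nr5a1 did not exceed 15.5 CPM in any library. Macrophage markers, 6 genes in all, summed to 11.1 to 40 CPM. Among these lists only Hba-a1, Hba-a2, Hbb-bs, Hbb-bt and C1qa lacked a count in at least 1 library. The part of these cells in the values below was not tested, and in pooled cells fewer cells of a type and less RNA per cell cannot be told apart.

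Of the 10 clock genes, 5 were above background in at least 1 library of fetal oocytes, and 3 of these, Per1, Per3 and Cry1, had a strong signal in a single library. Per1 reached 641 CPM in HFD replicate 1, Per3 reached 471 CPM in ND replicate 1 and Cry1 reached 273 CPM in ND replicate 1, whereas the same genes had 1.05 to 19.2 CPM in the remaining libraries. The other 7 genes had between 0.31 and 20.4 CPM in every library. Clock genes above background numbered 4 in ND replicate 1 and 1 in each of ND replicate 2, HFD replicate 1 and HFD replicate 2. For comparison, 30.8%, 27.3%, 16.6% and 18.8% of all genes tested were above background in the same libraries. Clock, Arntl, Nr1d1, Nr1d2 and Dbp were above background in 0 libraries. This rests on the limit: at the 95th percentile of the olfactory receptor genes Clock passed in both HFD libraries, Arntl in ND replicate 2 and HFD replicate 1, and Nr1d1 in ND replicate 1 and HFD replicate 2, while Nr1d2 and Dbp passed in none.

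**Figure D1:**
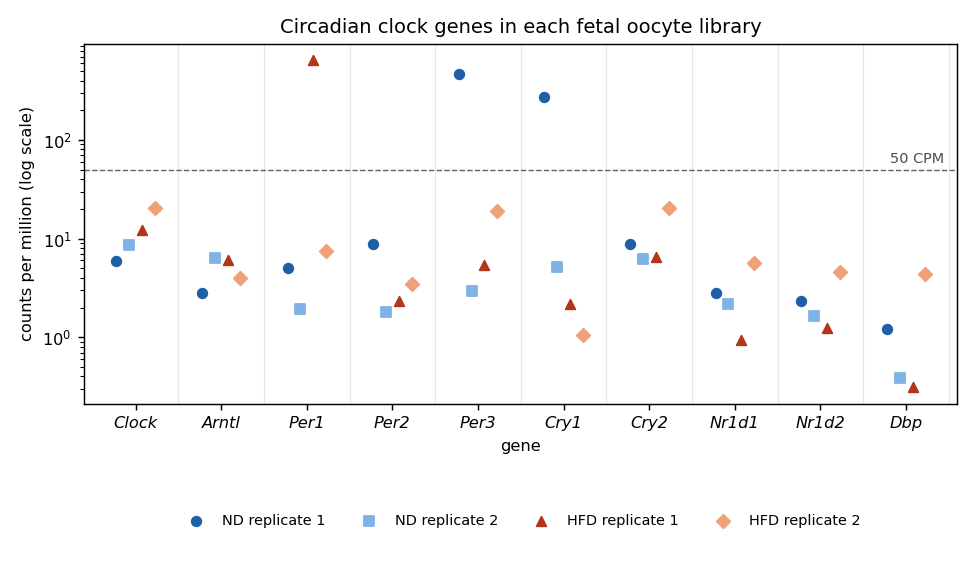
CPM of the 10 clock genes (log scale) in each of the 4 fetal oocyte libraries, with 1 point per library and a dashed line at 50 CPM. Per1 in HFD replicate 1 and Per3 and Cry1 in ND replicate 1 lie above the line, and every other point lies at or below 20.4 CPM.

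Clock factors are known to act through short DNA elements, and every promoter stretch of the clock genes that held 1 of 3 such motifs is shown here. RefSeq windows on GRCm38.p6, from 250 bases before a gene's start to 50 after it, were found for 9 of the 10 genes, 13 windows in all, and none for Per2. On both strands the windows were searched for the E-box CACGTG, where CLOCK and ARNTL bind, for the D-box core TTATGTAA, where DBP and its relatives bind, and for the cAMP response element TGACGTCA. None of these motifs contains another. The E-box was present in windows of Per1 and Cry1, 2 of the 9 genes, in 7.15% of all 32851 windows and in 8.09% of all 27025 genes. The D-box was present in the window of Per3, in 0.938% of all windows and in 1.11% of all genes. The cAMP response element was in 0 windows of the clock genes, in 1.79% of all windows and in 2.03% of all genes. The stretches around the matches follow, 5′ to 3′ on the strand of the gene, with the motif in capitals. The Per1 stretch lies at chr11:69098759-69098812 on the plus strand, with the E-box 166 bases before the start, and belongs to the window of a start inside the gene, 1 of 2 windows of Per1. The Cry1 stretch lies at chr10:85185085-85185138 on the minus strand, with the E-box 60 bases before the start. The Per3 stretch lies at chr4:151044792-151044894 on the minus strand and holds 2 D-boxes, 205 and 158 bases before the start.
Per1: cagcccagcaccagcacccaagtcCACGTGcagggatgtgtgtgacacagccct
Cry1: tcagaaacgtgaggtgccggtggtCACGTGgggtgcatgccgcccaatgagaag
Per3: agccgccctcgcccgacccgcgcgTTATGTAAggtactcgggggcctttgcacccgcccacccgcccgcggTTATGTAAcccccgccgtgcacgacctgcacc
The 3 genes with a match were the same 3 that exceeded 50 CPM, each in a single library. That limit was set with these values known, and a link between match and level was not tested. A match in letters does not show that a factor binds there.

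Of 19335 genes tested between the diets, 0 (0%) were called at an adjusted p under 0.05 and a fold change over 1.5 with edgeR's quasi-likelihood test, and 0 of the 9 clock genes tested. Dbp did not have enough counts to be tested. At an unadjusted p under 0.05, 11.2% of all genes passed, 932 higher and 1239 lower in HFD, and Cry1 did among the clock genes. The fitted value was higher in HFD for 6 clock genes and lower for 3, with a median log2 fold change of 0.25 against 0.03 over all genes tested. DESeq2, the test that the study used, was run on all genes at the same limits. DESeq2 called 3 of the 5 clock genes to which it gave an adjusted p, Per1 (adjusted p = 0.000262), Per3 (0.0171) and Cry1 (0.000691). It also called 40.3% of all genes with an adjusted p. In each of these 3 genes, 94.5% to 97.8% of the summed CPM came from 1 library. In CPM, the diets did not overlap for Clock, Per1 and Cry1, 3 of 10 genes, and for 27.3% of all genes tested.

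Clock encodes the activator that pairs with the protein of Arntl. It lies on chromosome 5 of GRCm38 from 76209868 to 76304792 and has 13727 bases of exon. Its counts were 49 and 68 in ND replicates 1 and 2, or 5.96 and 8.70 CPM, and 78 and 117 in HFD replicates 1 and 2, or 12.1 and 20.4 CPM. The HFD values both lay above the ND values, with means of 7.33 ± 1.94 CPM in ND and 16.3 ± 5.91 CPM in HFD (SD, 2 libraries each). For the diets, the log2 fold change of Clock was 1.04 (SE 0.63, edgeR adjusted p = 0.513), and leaving out single libraries gave 0.68 to 1.36. All 4 values were under the background limit, at 3.57 to 8.52 reads per kilobase.

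Arntl, also known as Bmal1, encodes the partner of CLOCK and lies on chromosome 7 from 113207465 to 113314126. It had 23 and 50 counts under ND, or 2.80 and 6.40 CPM, and 39 and 23 counts under HFD, or 6.04 and 4.02 CPM. The HFD values fell between the ND values. Arntl had a log2 fold change of 0.25 (SE 0.79, edgeR adjusted p = 0.947), which became -0.31 without ND replicate 1 and -0.94 without HFD replicate 1. Both activators of the loop were measured at low CPM in every library, and none of their values was above the limit set by 99% of the olfactory receptor genes.

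Per1 encodes a repressor of the loop whose transcription in other cells also responds to outside signals. It lies on chromosome 11 from 69095217 to 69109960. Its counts were 41 and 15 under ND and 4137 and 43 under HFD, which is 4.99, 1.92, 641 and 7.51 CPM in that order. HFD replicate 1 held 97.8% of the summed CPM and was 85.3 times the next library. Its 95% interval was 621 to 661 CPM (exact Clopper-Pearson). The means were 3.45 ± 2.17 CPM in ND and 324 ± 448 CPM in HFD (SD, n = 2 each), so that the spread within HFD exceeded the difference. The log2 fold change of Per1 was 7.05 (SE 2.87, edgeR adjusted p = 0.406) and became 0.42 without HFD replicate 1.

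Per2, a second repressor of the same family, lies on chromosome 1 from 91415982 to 91459324. It had 72 and 14 counts under ND, or 8.76 and 1.79 CPM, and 15 and 20 counts under HFD, or 2.32 and 3.49 CPM. ND replicate 1 was the highest and the only library above background, at 12.3 reads per kilobase against a limit of 8.47. Per2 had a log2 fold change of -0.89 (SE 0.79, edgeR adjusted p = 0.692), which became 0.50 without ND replicate 1.

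Per3, the third Per gene, lies on chromosome 4 from 151003652 to 151044665. It had 3874 and 23 counts under ND and 35 and 110 under HFD, which is 471, 2.94, 5.42 and 19.2 CPM in that order. ND replicate 1 held 94.5% of the summed CPM (95% interval of this library 456 to 486 CPM), and ND replicate 2 was the lowest library, so the diets overlapped. The means were 237 ± 331 CPM in ND and 12.3 ± 9.76 CPM in HFD (SD, 2 libraries each). For the diets, the log2 fold change of Per3 was -4.49 (SE 2.40, edgeR adjusted p = 0.451), and its sign changed to 1.63 without ND replicate 1. Per3 and Per2 thus had their highest value in the same library, ND replicate 1, and Per1 in HFD replicate 1.

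Cry1 encodes a cryptochrome, a strong repressor of CLOCK and ARNTL, and lies on chromosome 10 from 85131700 to 85185064. Its counts were 2245 and 40 under ND and 14 and 6 under HFD, or 273, 5.12, 2.17 and 1.05 CPM. Both ND values lay above both HFD values, and both ND libraries were above background, at 672 and 12 reads per kilobase, whereas the HFD libraries were below it, at 4.19 and 1.80. ND replicate 1 held 97.0% of the summed CPM. The means were 139 ± 189 CPM in ND and 1.61 ± 0.792 CPM in HFD (SD, 2 libraries each). For the diets, the log2 fold change of Cry1 was -6.16 (SE 2.34, unadjusted p = 0.0391, edgeR adjusted p = 0.406). It became -1.56 without ND replicate 1 and stayed below 0 with each library left out. Cry1 and Per3 were high in the library with the blood signal, and the part of blood cells in these values was not tested.

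Cry2, the second cryptochrome, lies on chromosome 2 from 92403646 to 92434043. It had 73 and 48 counts under ND, or 8.88 and 6.14 CPM, and 42 and 116 counts under HFD, or 6.50 and 20.3 CPM. HFD replicate 2 was the highest, HFD replicate 1 lay between the ND libraries, and ND replicate 1 and HFD replicate 2 were above background, at 11.6 and 18.4 reads per kilobase. Cry2 had a log2 fold change of 0.59 (SE 0.58, edgeR adjusted p = 0.733). Cry2 had no library that stood apart as Cry1 had: its highest library was 2.28 times the next, against 53.3 times for Cry1.

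Nr1d1, which encodes REV-ERBα, lies on chromosome 11 from 98767932 to 98775333. It had 23 and 17 counts under ND and 6 and 32 under HFD, or 2.80, 2.18, 0.929 and 5.59 CPM. The HFD libraries were the lowest and the highest of the 4, and the log2 fold change of Nr1d1 was 0.01 (SE 0.61, edgeR adjusted p = 0.998), with its sign changing between settings. Its 3′ end overlaps Thra on the opposite strand over 263 exon bases, 8.55% of its exon length, and Thra had 8137 counts in HFD replicate 2 against 19 to 521 in the others. The strand setting of the counting is not given in the sources used here, so that reads from this stretch cannot be assigned to either gene.

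Nr1d2, which encodes REV-ERBβ, lies on chromosome 14 from 18204054 to 18239127. It had 19 and 13 counts under ND and 8 and 26 under HFD, or 2.31, 1.66, 1.24 and 4.54 CPM, the same order of libraries as Nr1d1. Nr1d2 had a log2 fold change of 0.26 (SE 0.46, edgeR adjusted p = 0.885), which became -0.17 without HFD replicate 2. Dbp, a PAR-bZIP factor on chromosome 7 from 45705088 to 45710203, had 10 and 3 counts under ND and 2 and 25 under HFD, or 1.22, 0.384, 0.310 and 4.37 CPM, again in this order of libraries and at or under 3 counts in ND replicate 2 and HFD replicate 1. It shares 539 exon bases, 18.0% of its exon length, with Sphk2 on the opposite strand, which had 5 to 44 counts. HFD replicate 2 was the highest library for Clock, Cry2, Nr1d1, Nr1d2 and Dbp, and in that library the median over all genes tested was also highest, at 4.54 CPM against 3.16 and 2.94 CPM in the ND libraries and 2.01 CPM in HFD replicate 1. Of the remaining clock genes, Arntl shares 33 exon bases with an antisense gene and Cry2 shares 295, and the other genes share none.

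**Figure D2:**
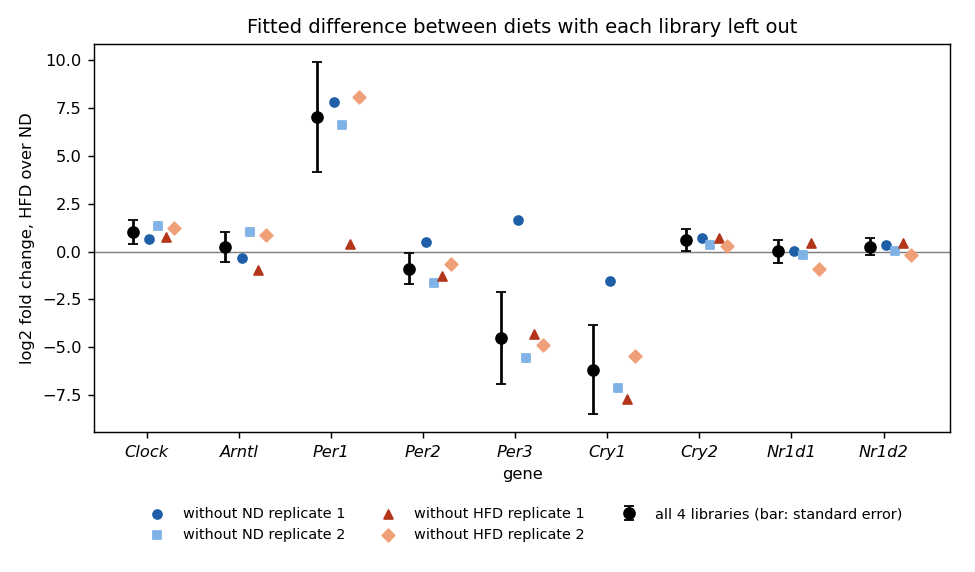
Log2 fold change of HFD over ND for the 9 clock genes tested, with all 4 libraries (black, bars are standard errors) and with each library left out (coloured, named for the library removed). Per1 dropped from 7.05 to 0.42 without HFD replicate 1, Cry1 moved from -6.16 to -1.56 and Per3 from -4.49 to 1.63 without ND replicate 1.

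Levels were compared between genes as CPM per kilobase of exon. By the median over the 4 libraries the order was Per3 (1.28), Cry2 (1.22), Per1 (1.11), Cry1 (1.09), Nr1d1 (0.808), Clock (0.757), Arntl (0.669), Per2 (0.497), Nr1d2 (0.367) and Dbp (0.267). The range over the libraries overlapped between every gene and the next in this order, so that no neighbours were separated beyond their spread. Per1, Per2 and Per3 were above background in 1 library each, Cry1 and Cry2 in 2, and the remaining genes in none. These medians therefore order values that lay largely at background. For Per1 the range ran from 0.341 to 114 CPM per kilobase, for Cry1 from 0.314 to 81.7, and for Arntl only from 0.372 to 0.850.

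A signal in 1 library alone was frequent among all genes in these data. At least 50 CPM with a level at least 10 times that of the next library was found for 3 of the 10 clock genes and for 11.1% of all genes tested. Of the genes tested that reached 50 CPM in any library, 70.6% did so in exactly 1 library, and all 3 of the clock genes did. The median ratio of the highest library to the next was 2.39 over the clock genes and 1.61 over all genes tested. These limits of 50 CPM and 10 times were set with the values of the clock genes known.

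**Figure D3:**
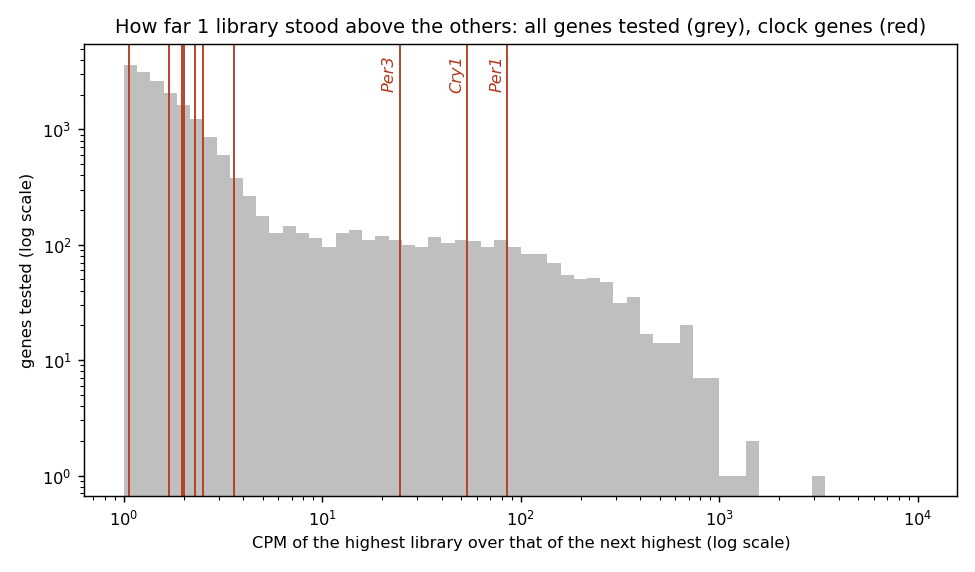
Distribution of the ratio between the highest and the next library in CPM over 19335 genes tested (grey, both axes on a log scale), with the 10 clock genes as red lines. Per3, Cry1 and Per1 lie at 24.5, 53.3 and 85.3, and the other 7 clock genes at or below 3.59.

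The other genes of the clock, 25 in a list of paralogues, receptors, cofactors, kinases, ubiquitin ligases and outputs, all had enough counts to be tested. None was called by edgeR's quasi-likelihood test, with 10 fitted higher and 15 lower in HFD and a median log2 fold change of -0.18. At an unadjusted p under 0.05 there were 3, Fbxl21 in the higher direction and Gsk3b and Tipin in the lower, where 11.2% of all genes passed. At least 50 CPM in some library was reached by 12 of the 25 genes, in exactly 1 library for 9 of them, and by 17.8% of all genes tested. DESeq2 on all genes called 4 of them higher and 5 lower, of 17 with an adjusted p, where 40.3% of all genes were called.

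The transcription factors of this list were mostly low, as were the 10 genes described first. Npas2 and Arntl2, paralogues of Clock and Arntl, Bhlhe40 and Bhlhe41, which repress at E-boxes, and the receptors Rora and Rorb, which activate Arntl, did not exceed 20.8 CPM in any library. Of the relatives and rivals of Dbp, Hlf and Nfil3 stayed at or below 5.37 CPM, whereas Tef had 399 counts in HFD replicate 1, or 61.8 CPM, and 4.02 to 6.14 CPM in the others. Of the cofactors, Ciart stayed at or below 3.67 CPM, Cipc had 41.4 CPM in HFD replicate 1 and 1.41 to 6.99 CPM in the others, and Timeless had 2912 counts and its partner Tipin 7529 counts in ND replicate 2, or 373 and 963 CPM. Both act mainly at replication forks in mammals. Outside this library Timeless had 2.94 to 13.8 CPM and Tipin 1.40 to 4.62 CPM.

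Genes that modify PER and CRY proteins also had strong signals in different libraries. Csnk1d, the kinase that marks PER proteins for destruction, had 48 and 17 counts under ND and 4415 and 54 under HFD. It was high in the library in which Per1 was high, and its paralogue Csnk1e had 5.84 to 18.3 CPM in all 4. Of the casein kinase 2 genes, Csnk2b had 5856 counts in ND replicate 1, or 712 CPM, against 4.89 to 8.70 CPM in the others, and Csnk2a1 had 324 CPM in ND replicate 1 and 52.7 CPM in HFD replicate 1. The phosphatase gene Ppp1ca reached 90.6 CPM in HFD replicate 1. Gsk3b, a kinase that also serves insulin and Wnt signalling, was the single gene of the list high in both libraries of a diet, with 2872 and 1486 counts in ND and 12 and 34 in HFD. The log2 fold change of Gsk3b was -6.35 (SE 1.66, unadjusted p = 0.00938, edgeR adjusted p = 0.406) and leaving out single libraries gave -6.75 to -6.00. Of the 19335 genes tested, 682 reached 50 CPM in exactly 2 libraries, whether of the same diet or not. In CPM, the diets did not overlap for 40.0% of the 25 other clock genes and for 27.3% of all genes tested.

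Among ubiquitin ligases, Fbxl21, which targets CRY proteins, had 7 and 10 counts in ND and 19 and 20 in HFD, at background in all 4 libraries, with a log2 fold change of 1.56 (SE 0.55, unadjusted p = 0.0264, edgeR adjusted p = 0.406). Fbxw11 and Btrc encode the β-TrCP proteins that target PER proteins. Fbxw11 had 694 CPM in ND replicate 1 and 2.63 to 6.29 CPM elsewhere, and Btrc had 127 CPM in ND replicate 1 and 140 CPM in HFD replicate 2. The deubiquitinase gene Usp2 and the cell cycle kinase gene Wee1, both clock-controlled in liver, reached 889 and 579 CPM in HFD replicate 1. Wee1 had 4 counts in HFD replicate 2 and Usp2 had 76. Noct, an output gene that encodes nocturnin, had 6.35 to 9.47 CPM in all 4 libraries. Thus Tef, Csnk1d, Ppp1ca, Usp2 and Wee1 shared the high library of Per1, and Csnk2b and Fbxw11 that of Per3 and Cry1. Timeless and Tipin were high in ND replicate 2, in which none of the 10 genes described first exceeded 8.70 CPM. Over all genes tested, HFD replicate 1 was the library with the most genes of this pattern, 838, followed by ND replicate 1 with 645, HFD replicate 2 with 371 and ND replicate 2 with 288.

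**Figure D4:**
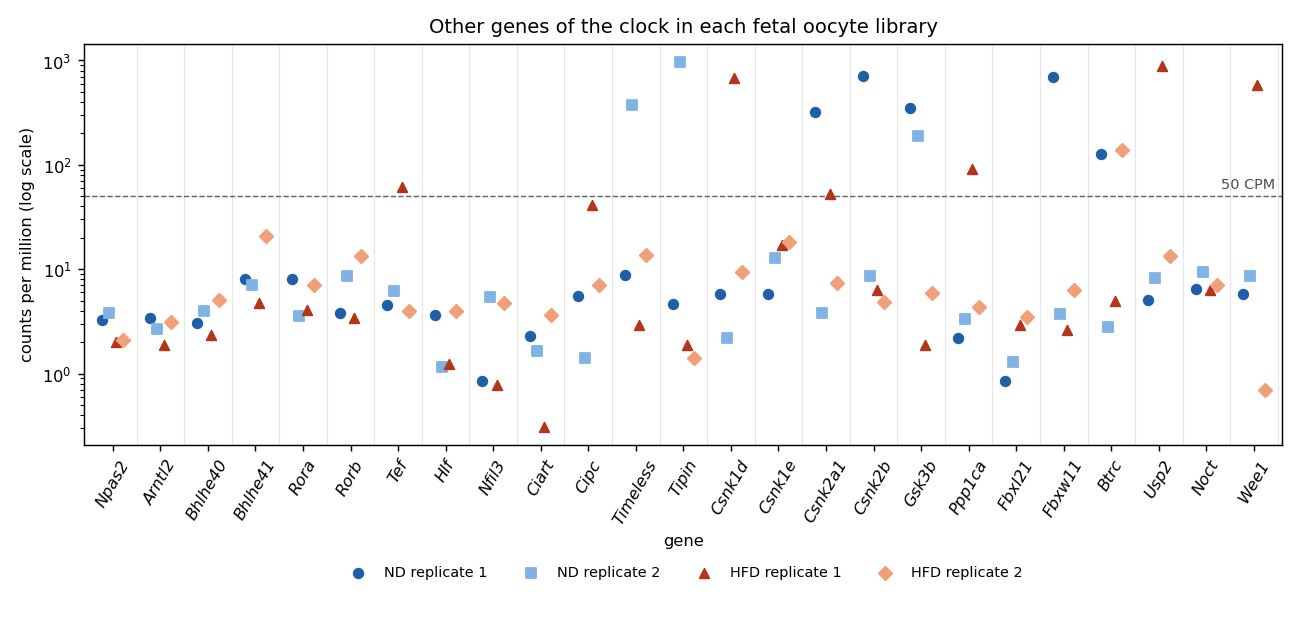
CPM (log scale) of 25 other clock genes in each library, with 1 point per library and a dashed line at 50 CPM. Points above the line are mostly single, in HFD replicate 1 for Csnk1d, Usp2 and Wee1, in ND replicate 1 for Csnk2b and Fbxw11 and in ND replicate 2 for Timeless and Tipin, while Gsk3b is above it in both ND libraries.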

How the data were processed

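RNA-seq libraries of E18.5 fetal oocytes, 2 from ND and 2 from HFD mothers, were used. The authors used Trim Galore for trimming, HISAT2 with mm10 for alignment and featureCounts for counting, and deposited raw counts per Ensembl gene, 1 library a file, without normalization. Annotation release, strand setting and treatment of multiply aligned reads are not given in the sources used here. Gene names, positions and summed exon lengths came from GENCODE M21 (GRCm38, the assembly of mm10), which lacked 260 of 55401 identifiers.

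The diets were compared in edgeR 4.0.16 under R 4.3.3 (TMM, filterByExpr, quasi-likelihood with legacy FALSE, Benjamini-Hochberg adjustment over all genes tested), with limma 3.58.1 and DESeq2 1.42.0 (default filtering) as alternatives. DESeq2 was the test of the study itself, and the limits of adjusted p and fold change used here were those of the study. Standard errors (SE) were derived by dividing the size of the log2 fold change by the root of the F statistic. The edgeR, limma and DESeq2 steps were run on simulated data with 200 genes changed. The simulated spread between replicates was fixed beforehand and not taken from these libraries, so it gives no error rates for them. The members, gene lists, thresholds and background measure were chosen with earlier results of these data known. Named among the other clock genes are those with an unadjusted p under 0.05 or at least 50 CPM, and others are given as examples chosen after their values were seen. Beside the 25 other clock genes, 2 more of that list are not reported here. The smallest p of an exact permutation test with 2 samples against 2 is 0.333, and none was run. Intervals treat reads as independent draws and cover the counting error of reads only. They do not cover that of the RNA molecules before amplification, since reads carry no molecular identifiers. Alternatives were other normalizations, filters and tests, a replicate block, and each library left out.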

Additional observations from a re-analysis of the deposited data

How the results depend on the processing

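The number of genes called between the diets was 0 with edgeR under RLE, library size only, no filter, at least 10 counts in every library, no fold change minimum, limma-voom, and with each library left out. It was 34 with edgeR's legacy fit and 2518 with DESeq2 on all genes, which also raised the clock genes called from 0 to 3. An unadjusted p under 0.05 was found for 2171 genes with edgeR, 750 with limma-voom and 1205 with the legacy fit. With the replicate number as a block, a replicate block that no label supports as a pairing, 0 genes were called and 1482 had an unadjusted p under 0.05, and the deviations of the replicates 1 from their group means correlated at 0.0112 across genes. Scaling by library size only moved the median log2 fold change of all genes from 0.03 to 0.21 and turned the sign of 0 clock genes. Nr1d1, at 0.011, changed sign to -0.0021 with RLE, -0.075 with no filter, -0.035 with DESeq2 and -0.16 with the block, and no other clock gene tested changed sign under these 4 settings. With each library left out, log2 fold changes ranged from -0.94 to 1.03 for Arntl, -1.64 to 0.50 for Per2, -5.56 to 1.63 for Per3, -0.90 to 0.45 for Nr1d1 and -0.17 to 0.47 for Nr1d2, and the signs of Clock, Per1, Cry1 and Cry2 did not change under any alternative run. Clock genes above background rose from 4 to 6 in ND replicate 1, from 1 to 3 in ND replicate 2 and from 1 to 4 in each HFD library at the 95th percentile of olfactory receptor genes, and to 10, 9, 9 and 10 in ND replicates 1 and 2 and HFD replicates 1 and 2 with more than 3 counts as the sole limit. Whether a clock gene of a few CPM was above background thus depended on the limit.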

Other observations

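Genes that nearly every cell uses were also uneven between these libraries. Of 12 housekeeping genes, 4 were above background in all 4 libraries and 1 in none. Actb, a cytoskeletal actin, ranged from 15804 to 15983 counts under ND and from 24209 to 28782 under HFD. Gapdh, a glycolytic enzyme gene, had 5477 counts in ND replicate 1 and 23 to 92 counts in the others. Its high library was the one in which Per3 and Cry1 were high.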
